A study of Mus musculus with 14 samples.

Results

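The MHC class II chains H2-Aa, H2-Ab1 and H2-Eb1, the invariant chain Cd74, the peptide-loading chains H2-DMa and H2-DMb1 and the transactivator Ciita were followed in mouse liver. The members were all probe sets of the array whose only gene symbol was 1 of these 7. This gave 7 of the 8252 genes named on the array, measured by 8 of its 12488 probe sets, and 6 of the 8 (1 for each gene but Ciita) were bright enough to be tested. Whole liver RNA had been measured on Affymetrix arrays, 1 mouse per array, in 14 mice. Snell dwarf mice carry a mutation of Pit-1 (Pou1f1), a transcription factor of the pituitary that is needed for growth hormone, prolactin and thyrotropin, and live long. At 6 months of age there were 4 dwarf animals and 4 wild type animals, and at 22 months 3 of each genotype. The wild type mice were the controls for the mutant. Every array carries its own animal number in the labels, which state neither sex nor strain nor batch. The mutation is carried by every cell of the animal, so the comparison does not separate an effect on the liver from one on the rest of the body.

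MHC class II molecules are pairs of an alpha and a beta chain on the cell surface that show peptides from engulfed proteins to CD4+ T cells. Cd74 fills the groove of a new pair and guides it to the endosome, where proteases trim it and the DM heterodimer exchanges the remaining fragment for a peptide. Ciita switches these genes on together by joining factors that sit on the X and Y boxes of their promoters, and interferon gamma is a known inducer of it. In liver, the pathway is known from dendritic cells, B cells and Kupffer cells, the resident macrophages, and sinusoidal endothelial cells can carry it as well.

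Because the class II genes are known for a shared promoter layout, the 150 bases before the annotated start are shown for the members in which a spelled-out Y box core lay in that window. Windows were held for 4 of the 7 genes, from RefSeq on GRCm38.p6. H2-Ab1, Cd74 and Ciita are named only. All 3 promoters shown lie on chromosome 17, each ending at the base before the start of transcription. Capitals mark the letters searched: CTGATTGG or its core GATTGG (Y box), GCAAC (within the X box) and TGACGTCA (the cyclic AMP response element, an X2 box sequence), on either strand.
H2-Aa, chr17:34287824-34287973, minus strand: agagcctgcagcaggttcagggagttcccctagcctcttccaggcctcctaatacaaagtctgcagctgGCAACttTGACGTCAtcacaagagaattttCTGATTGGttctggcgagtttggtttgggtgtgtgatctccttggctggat
H2-Eb1, chr17:34305717-34305866, plus strand: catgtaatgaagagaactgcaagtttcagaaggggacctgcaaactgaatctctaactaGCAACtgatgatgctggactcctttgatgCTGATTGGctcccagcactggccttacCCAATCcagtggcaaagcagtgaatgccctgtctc
H2-DMb1, chr17:34153041-34153190, plus strand: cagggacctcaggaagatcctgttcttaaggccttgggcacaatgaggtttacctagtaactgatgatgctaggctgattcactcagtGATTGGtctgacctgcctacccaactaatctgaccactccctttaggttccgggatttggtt
H2-Aa held CTGATTGG from base -51, GCAAC from base -81 and TGACGTCA from base -74. H2-Eb1 held CTGATTGG from base -62 and GCAAC from base -91, with a further GATTGG on the opposite strand. H2-DMb1 held the core GATTGG from base -62, and the same core within the CTGATTGG of H2-Eb1 started at base -60. H2-Eb1 and H2-DMb1 shared the 13 bases AACTGATGATGCT, starting at bases -89 and -92, which 3 of the 32851 windows of 300 bases held (0.00913%). CTGATTGG stood in 4.1% of all windows, GATTGG (which CTGATTGG contains) in 16.1%, GCAAC in 35.2% and TGACGTCA in 1.79%. Of the pair of H2-DMa windows, 1 held GCAAC on the opposite strand and the other held GATTGG at base -199. These matches describe letters and not binding.

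Values are MAS5 signals on a linear scale. Testing required a signal above the median of all values, 184.8, on 3 arrays or more, and signals below 54.9, the 25th percentile, were raised to that floor for the fit. Signals of different probe sets are on different scales, so each gene is compared only with itself across mice. The class II chains were measured by the probe sets 92866_at (H2-Aa), 100998_at (H2-Ab1) and 94285_at (H2-Eb1), and Cd74 by 101054_at. The DM chains were measured by 93092_at, the brighter H2-DMa probe set, and 98035_g_at (H2-DMb1). The suffix of the latter marks a set that may detect related transcripts. The fainter H2-DMa probe set, 162346_f_at, and the Ciita probe set, 102917_at, each passed 184.8 on 1 array and were not tested. H2-Aa and H2-Ab1 lay below 184.8 in all wild type mice of 6 months, so they entered the test only through other groups, and counts over the tested members are descriptions.

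The tissue label was checked first. Albumin, the main secreted protein of hepatocytes, had group mean signals of 42858.4 to 58766.3. In whole tissue, fewer cells of a type and less RNA per cell cannot be told apart. The 18S control signal was 339.8 or more on every 22-month array, 587.6 in the 6-month wild type animal 88 and 217.4 or less on the other 6-month arrays. The 3' to 5' signal ratio of the beta-actin control, which reflects how intact the RNA was, ran from 2.288 to 2.692 in dwarf and from 1.164 to 2.383 in wild type mice of 6 months. At 22 months it was 1.251 to 1.572 in dwarf and 1.518 to 1.741 in wild type mice.

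**Figure D1:**
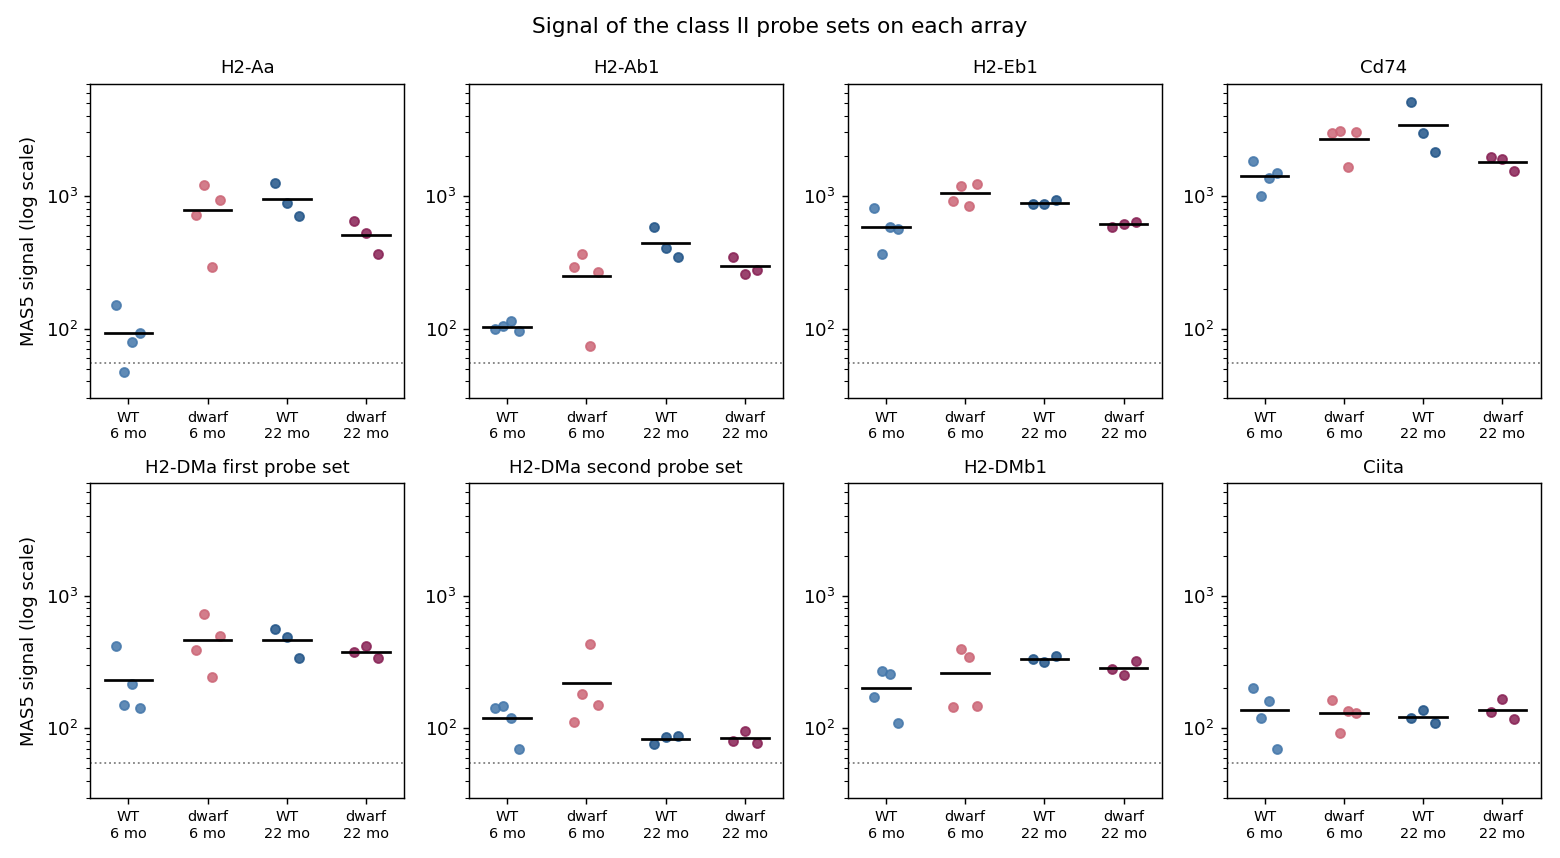
Signal of the 8 member probe sets (y axis, MAS5 signal on a log scale) in the 4 groups (x axis; WT, wild type; mo, months). Each point is 1 mouse, each horizontal bar the group mean and the dotted line the floor of 54.9. In the 6 tested probe sets the wild type mice of 6 months had the lowest group mean of log2 signal, and the Ciita groups overlapped.

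The genotypes were compared first in young adults of 6 months. H2-Aa, Cd74 and H2-Eb1 were higher in dwarf mice, 7.88-fold, 1.88-fold and 1.85-fold. H2-Ab1 and the DM chains also had higher means in dwarf mice but did not pass. Of the 6 tested member probe sets, 3 were higher and 0 lower, where 6.37% of all 7227 tested probe sets were called higher, 6.95% lower and 13.3% in either direction. The median log2 difference of the tested members was 0.98, and that of all tested probe sets 0.10. A call is an adjusted p under 0.05 in limma with Benjamini-Hochberg adjustment, and p values below are of this kind unless another test is named. The ± after a log2 value is its standard error.

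H2-Aa, the alpha chain of the I-A molecule, had signals of 714.9, 1209.6, 288.8 and 931.3 in the dwarf animals 83, 85, 87 and 89 of 6 months. In the wild type animals 82, 84, 86 and 88 they were 150.6, 47.5, 79.3 and 91.9. Every dwarf mouse lay above every wild type mouse, and the lowest wild type value lay under the floor, so the fitted difference understates that animal's distance. The log2 difference was 2.98 ± 0.39 (adjusted p = 9.34e-05, n = 4 and 4, limma). It was 3.01 with the 3' to 5' ratio as a covariate and 2.95 with the 18S signal. Groups did not overlap, with dwarf higher, in 2 of the 6 tested members, H2-Aa and H2-Eb1, and in 9.31% of all tested probe sets. With dwarf lower they did so in 0 members and in 7.8% of all.

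H2-Ab1, the beta chain that pairs with H2-Aa, had signals of 290.3, 365.6, 74.4 and 265.3 in the dwarf animals 83, 85, 87 and 89. The wild type values were 99.8, 104.5, 113.3 and 96.5, a spread of 103.5 ± 7.30 (SD, n = 4). In dwarf mice 3 of 4 lay above all wild type mice and animal 87 below them all. The log2 difference of 1.05 ± 0.38 did not pass (adjusted p = 0.0798, n = 4 and 4, limma). Without animal 87 it was 1.56 (adjusted p = 0.000456, limma).

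H2-Eb1, the beta chain of the I-E molecule, measured 918.4, 1193.8, 841.0 and 1227.4 in the dwarf and 807.7, 367.1, 586.2 and 561.4 in the wild type mice, in the order of animals above. The lowest dwarf value lay just above the highest wild type value, from animal 82. The log2 difference was 0.88 ± 0.20 (adjusted p = 0.00816, n = 4 and 4, limma). Its alpha chain partner H2-Ea, which is no member, lay at or below the floor on 11 of 14 arrays.

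Cd74 measured 2973.5, 3070.7, 1657.6 and 3019.3 in the dwarf and 1824.6, 997.1, 1356.4 and 1482.5 in the wild type mice. In dwarf mice 3 of 4 lay close together above all wild type mice, and animal 87 lay within their range. The log2 difference was 0.91 ± 0.26 (adjusted p = 0.0288, n = 4 and 4, limma). The call was lost without 84 (adjusted p = 0.0833, limma), 86 (0.0586), 83 (0.06), 85 (0.0739) or 89 (0.076). It was also lost under median scaling (0.71, adjusted p = 0.113), without the filter (adjusted p = 0.0921) and with the 3' to 5' ratio as a covariate (adjusted p = 0.066). Median scaling moved the median difference of all tested probe sets at 6 months from 0.10 to -0.10.

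The DM chains help load peptides onto the class II groove. The brighter H2-DMa probe set measured 390.0, 724.3, 242.0 and 494.5 in the dwarf and 414.3, 149.1, 214.9 and 142.6 in the wild type mice. Animal 82 was the only wild type mouse within the dwarf range. The log2 difference of 1.04 ± 0.34 did not pass (adjusted p = 0.057, n = 4 and 4, limma), and was 1.37 without animal 82 (adjusted p = 0.0111) and 1.31 without 87 (adjusted p = 0.0217). H2-DMb1 measured 145.2, 399.4, 344.6 and 147.2 in the dwarf and 171.1, 271.5, 258.6 and 110.4 in the wild type mice. Both groups held 2 brighter and 2 dimmer mice, and the difference of 0.29 ± 0.35 was smaller than its error (adjusted p = 0.611, limma). A further probe set that carries both H2-DMb1 and H2-DMb2 as symbols was no member and had a mean signal of 83.2 in dwarf and 42.5 in wild type mice, with 3 of 4 wild type arrays at the floor.

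The fainter H2-DMa probe set, whose suffix also marks possible detection of related transcripts, ranked the mice differently. Its highest 6-month value was 432.3 in animal 87, the animal with the lowest dwarf value in the brighter set. The other dwarf mice had 111.5 to 180.9 and the wild type mice 69.4 to 147.4. Its log2 difference without the filter was 0.73 ± 0.37. Ciita, the transactivator, measured 162.2, 92.1, 135.6 and 131.5 in the dwarf and 200.0, 120.6, 161.9 and 69.4 in the wild type mice. The ranges overlapped, and without the filter the log2 difference was -0.01 ± 0.30.

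H2-Aa had the largest difference of the tested members at 6 months, and was singled out for it after the values were seen, so what follows is a description with no test. The log2 signal of H2-Aa minus that of another member, which removes what both share on an array, was -0.57 ± 0.67 in dwarf and -2.67 ± 0.20 in wild type mice against H2-Eb1 (SD, n = 4 each), a gap of 2.09. The gap was 1.93 against H2-Ab1, 2.07 against Cd74, 1.94 against the brighter H2-DMa probe set and 2.69 against H2-DMb1. All 5 gaps use the same H2-Aa values.

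Single mice carried much of the spread within a group. Animal 87 was the lowest dwarf mouse of 6 months in 5 of the 6 tested members, and animal 85 the highest in 5. The 25th percentile of all signals was 56.5 to 74.1 on the arrays of young dwarf mice, highest for animal 87, and at most 56.0 on every other array. Among the wild type mice of 6 months, 82 was highest in 4 members, and 84 and 88 were each lowest in 3. In old wild type mice animal 1 was highest in 4 and animal 24 lowest in 4.

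At 22 months the question was whether the genotypes still differ in old mice. No tested member passed: 0 were higher and 0 lower, against 1.37% of all tested probe sets called higher, 1.56% lower and 2.93% in either direction. All 6 had a lower mean log2 signal in dwarf mice, with a median of -0.56 against 0.01 over all tested probe sets. An unadjusted p under 0.05 (limma) was reached by 2 members, and the count of calls was 0 in every alternative run. Groups did not overlap, with dwarf lower, in 4 of the 6 (H2-Aa, H2-Ab1, H2-Eb1 and Cd74) and in 11.5% of all tested probe sets. With dwarf higher they did so in 0 members and in 10.3% of all.

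H2-Aa measured 642.6, 522.9 and 363.2 in the dwarf animals 3, 4 and 8 and 1256.1, 886.7 and 707.7 in the wild type animals 1, 2 and 24. All dwarf values lay under all wild type values, at a log2 difference of -0.90 ± 0.45 (adjusted p = 0.435, n = 3 and 3, limma). H2-Ab1 measured 343.4, 259.7 and 278.2 in dwarf against 581.7, 404.0 and 347.7 in wild type mice. The values of animals 3 and 24 nearly met, and the difference was -0.57 ± 0.44 (adjusted p = 0.708, limma).

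H2-Eb1 measured 583.1, 610.8 and 635.2 in dwarf against 865.7, 873.3 and 928.4 in wild type mice. Both groups were tight, with a gap between them wider than either range, and the difference was -0.54 ± 0.23 (adjusted p = 0.314, limma). Cd74 measured 1977.8, 1888.1 and 1548.2 in dwarf against 5058.7, 2981.1 and 2135.4 in wild type mice. Animal 1 lay far above the rest, and the difference of -0.83 ± 0.30 did not pass (adjusted p = 0.194, limma). Without animal 1 it was -0.49.

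The brighter H2-DMa probe set measured 374.9, 414.9 and 340.4 in dwarf and 563.3, 489.0 and 340.6 in wild type mice (-0.28 ± 0.40, adjusted p = 0.902, limma). H2-DMb1 measured 280.5, 254.0 and 320.6 in dwarf and 334.5, 318.7 and 350.4 in wild type mice (-0.24 ± 0.40, adjusted p = 0.930, limma). For both DM chains the groups overlapped. Ciita measured 132.2, 165.4 and 117.8 in dwarf and 120.3, 136.8 and 110.0 in wild type mice, also overlapping, and the fainter H2-DMa probe set lay between 76.6 and 95.2 in all 6 mice.

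**Figure D2:**
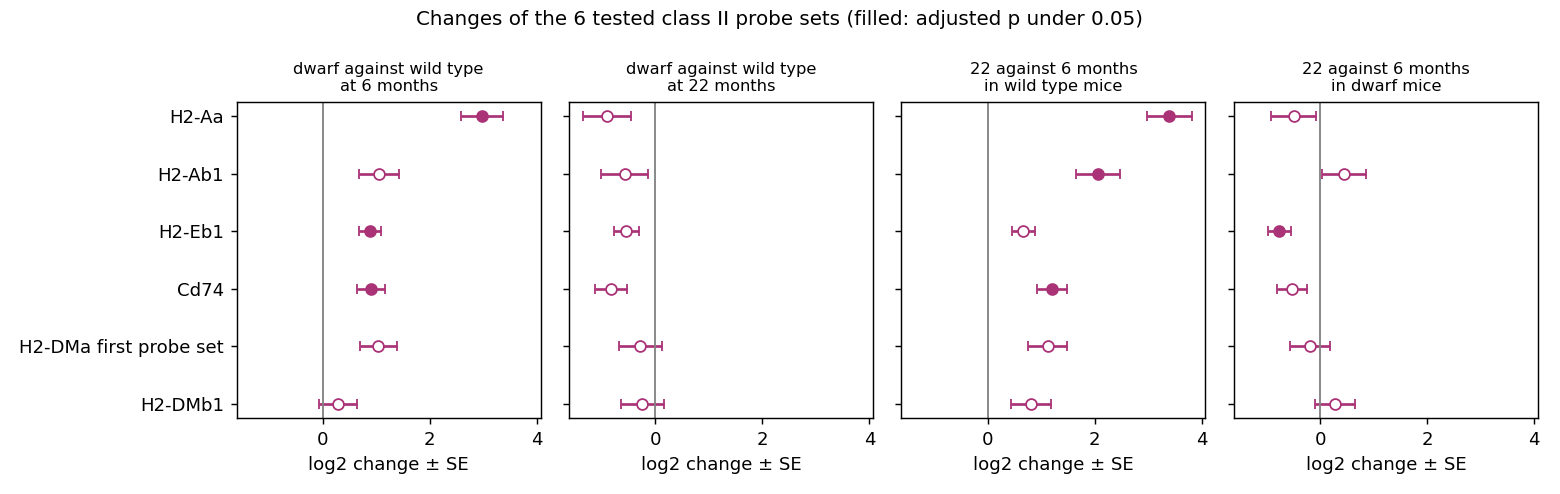
Log2 difference (x axis) of each tested member probe set in 4 comparisons, with bars of 1 standard error from limma. Filled circles mark an adjusted p under 0.05. All values lie above 0 in the genotype comparison of young mice and in ageing wild type mice, and all lie below 0 in the genotype comparison of old mice.

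The comparison of 22 with 6 months in wild type mice asked how these genes differ with age in controls. It shares the wild type mice of 6 months with the first comparison and those of 22 months with the second, so these results are not independent of each other. H2-Aa was 10.5-fold, H2-Ab1 4.20-fold and Cd74 2.30-fold higher in old mice. Of the 6 tested members 3 were higher and 0 lower, against 1.45% of all tested probe sets called higher, 1.04% lower and 2.49% in either direction. The median over the tested members was 1.16, and -0.02 over all tested probe sets. Groups did not overlap, with old mice higher, in 5 of the 6 (all but H2-DMa) and in 8.12% of all tested probe sets. With old mice lower they did so in 0 members and in 7.78% of all.

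H2-Aa rose from 92.3 ± 43.1 (SD, n = 4) to 950.2 ± 279.7 (SD, n = 3), a log2 change of 3.39 ± 0.42 (adjusted p = 0.000816, limma). Its lowest old mouse, at 707.7, lay far above its highest young mouse, at 150.6. H2-Ab1 rose from 103.5 ± 7.30 to 444.5 ± 122.1, a change of 2.07 ± 0.41 (adjusted p = 0.0186, limma). That call was lost without animal 1 (adjusted p = 0.0852) or 2 (0.0555), without the filter (0.0691) and with the 18S signal as a covariate (2.02, adjusted p = 0.193). The 18S signal nearly followed age, and its part in the result cannot be told apart from age.

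Cd74 rose from 1415.2 ± 341.8 to 3391.7 ± 1504.3, a change of 1.20 ± 0.28 (adjusted p = 0.0352, limma). The call was lost without animal 1 (0.87, adjusted p = 0.147), 2 (adjusted p = 0.0867), 84 (0.0991) or 86 (0.0816). With the 18S signal as a covariate the change was 1.32 (adjusted p = 0.205). The call was also lost under median scaling (0.0598), without the filter (0.124) and without the intensity trend (0.065). It was lost as well with the 3' to 5' ratio as a covariate (0.0598) and when the compared groups were fitted alone (0.0758). H2-Eb1 had a change of 0.67 ± 0.22 (adjusted p = 0.114, limma), H2-DMa of 1.12 ± 0.37 (adjusted p = 0.124) and H2-DMb1 of 0.81 ± 0.37 (adjusted p = 0.274). Without animal 82, the brightest young wild type mouse in most members, H2-Eb1 passed at 0.85 (adjusted p = 0.0474) and H2-DMa at 1.45 (adjusted p = 0.0417), so that 5 members were called. Without animal 1 or without animal 2 only 1 was, H2-Aa. Ciita overlapped between the ages, with a log2 difference of -0.07 ± 0.32 without the filter.

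The same ages were then compared in dwarf mice, which again uses groups of the comparisons above. H2-Eb1 was 1.69-fold lower at 22 months, and the other 5 tested members did not pass. So 1 of 6 was lower and 0 higher, against 8.57% of all tested probe sets called lower, 7.94% higher and 16.5% in either direction. The groups did not overlap, with old mice lower, for H2-Eb1 alone of the 6 and for 16.5% of all tested probe sets. With old mice higher they did so for 0 members and for 12.6% of all. H2-Eb1 went from 1045.2 ± 194.1 (SD, n = 4) to 609.7 ± 26.1 (SD, n = 3), a log2 change of -0.76 ± 0.22 (adjusted p = 0.0272, limma). This call was lost without animal 3 (adjusted p = 0.0921), 4 (0.0722), 8 (0.0597), 85 (0.0664) or 89 (0.0684). It was also lost under median scaling (-0.56, adjusted p = 0.108), without the filter (0.0608), with the 3' to 5' ratio (0.144) and with the 18S signal (0.192).

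The remaining values with age in dwarf mice were -0.49 ± 0.42 for H2-Aa, -0.53 ± 0.28 for Cd74, -0.19 ± 0.37 for H2-DMa, 0.45 ± 0.41 for H2-Ab1 and 0.28 ± 0.37 for H2-DMb1 (adjusted p = 0.195 to 0.753, limma). The signs of H2-Ab1 (-0.06 without animal 87) and H2-DMa (0.01 under median scaling) were not stable. The median over the tested members was -0.34, against -0.09 over all tested probe sets. The fainter H2-DMa probe set, not tested, lay at 111.5 to 432.3 in young and 77.4 to 95.2 in old dwarf mice, without overlap.

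The interaction of genotype and age asked whether the genotype difference at 22 months differs from that at 6 months. For 3 of the 6 tested members it did, each with a lower difference at 22 months, against 0.65% of all tested probe sets called lower, 1.54% higher and 2.19% in either direction. The change of the difference was -3.88 ± 0.59 for H2-Aa (adjusted p = 0.00379, limma), -1.74 ± 0.39 for Cd74 (adjusted p = 0.033) and -1.43 ± 0.31 for H2-Eb1 (adjusted p = 0.0252). Dwarf mice were thus above wild type mice at 6 months and below them at 22 months in means of all 3, although the 22-month differences did not pass on their own. H2-Ab1 (-1.62 ± 0.58, adjusted p = 0.198), H2-DMa (-1.31 ± 0.53, adjusted p = 0.262) and H2-DMb1 (-0.52 ± 0.53, adjusted p = 0.706) did not pass.

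The interaction of H2-Aa kept its call in all 26 alternatives, at -4.30 to -3.36. That of H2-Eb1 was lost without 1 (adjusted p = 0.056, limma), 24 (0.0706), 3 (0.0731), 4 (0.0584) or 8 (0.0537), and under median scaling (0.06), without the filter (0.0767) and without the intensity trend (0.0532). That of Cd74 was lost without 1 (0.077), 3 (0.0711), 4 (0.0648), 8 (0.091), 84 (0.0567), 86 (0.058), 83 (0.052), 85 (0.0536) or 89 (0.0647). It was also lost with the 3' to 5' ratio as a covariate (-1.72, adjusted p = 0.103), under median scaling (0.0867), without the filter (0.13) and without the trend (0.0711). Without animal 1, 3, 4 or 8 only 1 member was called. Without animal 87, H2-Ab1 passed as well (-2.13, adjusted p = 0.00557). Averaged over both ages, H2-Aa alone was called, higher in dwarf mice at 1.04 ± 0.30 (adjusted p = 0.0341), where 4.65% of all tested probe sets were called higher, 5.62% lower and 10.3% in either direction, and it lost the call in 15 of 26 alternatives.

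By group mean of log2 signal, wild type mice of 6 months were lowest in all 6 tested members. Wild type mice of 22 months were highest in 5, and dwarf mice of 6 months were highest in H2-Eb1. Neighbouring groups in that order mostly overlapped. The exceptions were the step of 2.49 from young wild type to old dwarf mice in H2-Aa, and the steps between old wild type and old dwarf mice in H2-Ab1 (0.57) and H2-Eb1 (0.55).

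Of the other class II pathway genes on a list of 17, 15 had a probe set of 1 gene and 9 were tested. At 6 months 1 was higher and 0 lower (median 0.24). It was Rfxank (0.48 ± 0.15, adjusted p = 0.0424, limma), a subunit of the RFX complex on the X box, a call lost when any of 11 single arrays was left out and under median scaling (adjusted p = 0.262). At 22 months none passed, and 2 had an unadjusted p under 0.05 (median -0.04, limma). With age in wild type mice 1 was higher (median 0.21), the endosomal protease Ctss, which trims Cd74, at 0.95 ± 0.23 (adjusted p = 0.0403, limma), a call lost without 1, 2, 4, 84, 86 or 87 (adjusted p up to 0.155). The Ctss call was also lost with the 18S signal (0.224) or the 3' to 5' ratio (0.0672) as a covariate, under quantile normalization, under median scaling and without the filter. With age in dwarf mice Rfxank was lower (-0.74 ± 0.16, adjusted p = 0.00784, limma). Nfyb, a Y box factor, was higher (0.64 ± 0.16, adjusted p = 0.0161), and not called without animal 3 (0.0667) or 4 (0.0618). Both calls were lost with the 3' to 5' ratio (0.103 for Rfxank and 0.0523 for Nfyb) and with the 18S signal (0.098 and 0.125) as a covariate. The beta-actin ratio did not overlap between young and old dwarf mice.

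The list of interferon gamma response genes holds parts of the signalling chain and its known targets. Of 15 tested, 0 were higher and 2 lower in dwarf mice at 6 months (median -0.25): the guanosine triphosphatases Iigp1 (-1.91 ± 0.41, adjusted p = 0.00578, limma) and Irgm1 (-0.80 ± 0.21, adjusted p = 0.02). Irgm1 lost its call without 86 (0.0642) or 87 (0.0605). At 22 months none of the 15 passed, and 7 had an unadjusted p under 0.05 (median -0.67, limma). With age in wild type mice none passed, 2 had an unadjusted p under 0.05 and 14 of 15 were positive (median 0.60, limma). In dwarf mice 2 were higher with age (median -0.07): Ifngr2 (1.04 ± 0.23, adjusted p = 0.00789, limma) and Iigp1 (1.34 ± 0.44, adjusted p = 0.0495). Both calls were lost with the 3' to 5' ratio as a covariate (0.101 and 0.5). Iigp1 also lost this call when any of 12 single arrays was left out. It was lost as well under quantile normalization (0.072), without the filter (0.143) and with the 18S signal (0.2). Averaged over both ages, 0 of the 15 were higher and 5 lower in dwarf mice (median -0.62), where 4.65% and 5.62% of all tested probe sets were called. Ifng itself lay at or below the floor on all 14 arrays.

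MHC class I genes, whose products show peptides from inside the cell to CD8+ T cells, had a median of -0.44 at 6 months. Of 9 tested, 0 were higher and 1 lower, H2-D1 at -0.44 ± 0.12 (adjusted p = 0.0203, limma), a call lost without 88 (0.0545) or 89 (0.0654). The H2-D1 call was also lost with the 3' to 5' ratio as a covariate (0.0749) and when the compared groups were fitted alone (0.0628). At 22 months none passed, and 3 had an unadjusted p under 0.05 (median -0.40, limma). With age in wild type mice 2 were higher (median 0.24): H2-Q4 at 1.35 ± 0.34 (adjusted p = 0.0469), lost when any of 12 single arrays was left out, and Tapbp, the class I loading factor, at 0.86 ± 0.20 (adjusted p = 0.0352), lost without 1, 2, 24, 84 or 86. Both these calls were also lost with the 18S signal as a covariate (0.478 and 0.181), under quantile normalization, under median scaling and without the filter. With age in dwarf mice 2 were higher as well (median 0.31): H2-Q4 at 1.57 ± 0.34 (adjusted p = 0.00764) and H2-D1 at 0.55 ± 0.13 (adjusted p = 0.0104). Both lost the call with the 3' to 5' ratio (0.504 and 0.283) and with the 18S signal (0.135 and 0.0869). The suffix of the H2-D1 and H2-Q4 probe sets marks possible detection of related transcripts, so their changes may not belong to these genes alone.

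**Figure D3:**
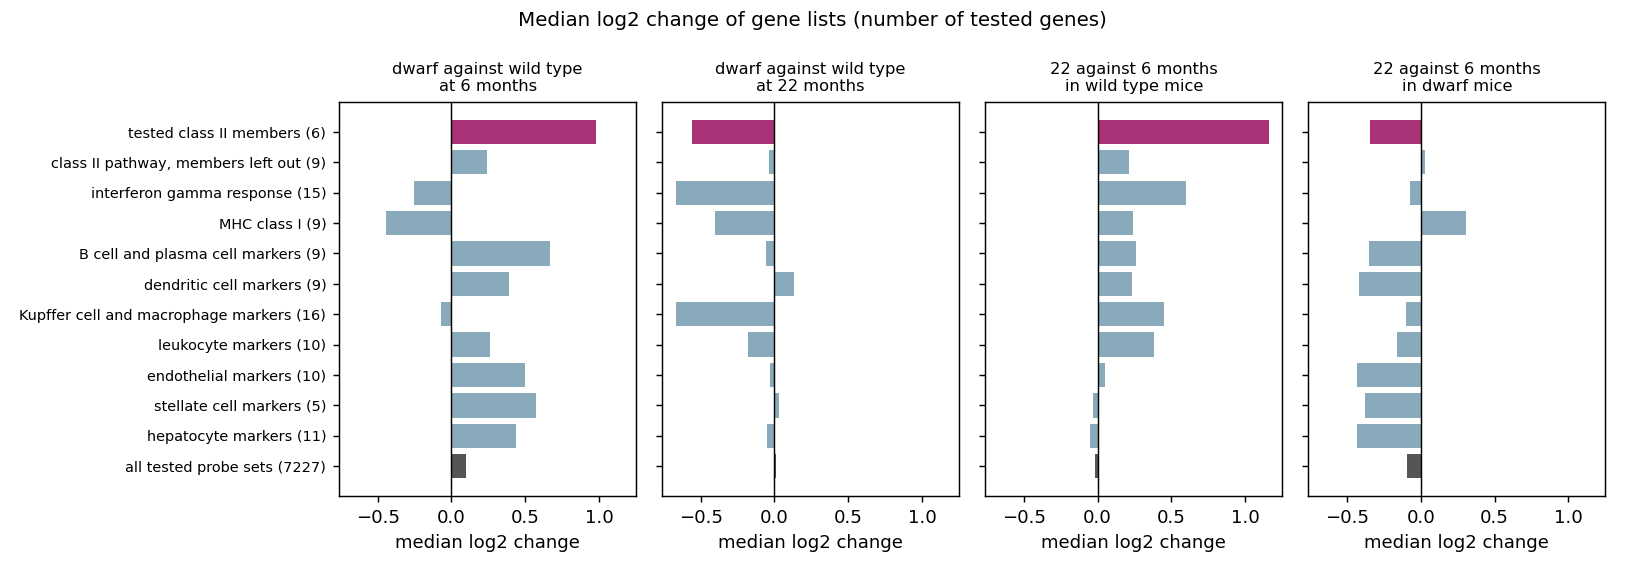
Median log2 difference (x axis) of the tested members and of the tested genes of the lists named on the y axis, beside all tested probe sets, in the comparisons named on the panels. The class II pathway list is shown with the members left out. The T cell and NK cell list and the cholangiocyte list are not shown. The members' median is 0.98 at 6 months and -0.56 at 22 months, beside 0.10 and 0.01 for all tested probe sets.

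Markers of liver cell types were read beside these results. Sums of signal over a list are given only across mice, and lean on the brightest probe sets, since scales differ. Beside the counts of all lists, 6.37% of all tested probe sets were called higher and 6.95% lower in dwarf mice at 6 months. At 22 months the shares were 1.37% and 1.56%. With age they were 1.45% and 1.04% in wild type and 7.94% and 8.57% in dwarf mice. Of 9 tested B cell and plasma cell markers, 4 were higher in dwarf mice at 6 months and 0 lower (median 0.67). They were the immunoglobulin heavy chain Ighm (0.73 ± 0.20, adjusted p = 0.0272, limma), the joining chain Jchain (0.78 ± 0.22, adjusted p = 0.028), the B cell factor Pax5 (0.75 ± 0.22, adjusted p = 0.0346) and the receptor chain Cd79b (0.93 ± 0.29, adjusted p = 0.0467). Each of the 4 calls was lost without animal 82, 85 or 89 (adjusted p = 0.0582 to 0.115) and under median scaling. The summed signal of the list was 3782.4 to 4492.5 in dwarf and 2710.5 to 3403.1 in wild type mice of 6 months, without overlap. In old mice it was 3163.3 to 3961.1 in dwarf and 4084.9 to 4142.2 in wild type mice, again without overlap, as for several other lists given below. Gene by gene, 0 of the 9 markers passed at 22 months and 4 were positive (median -0.06, against 0.01 over all tested probe sets). Ighm had an interaction of -1.36 ± 0.31 (adjusted p = 0.0339), lost when any of 10 single arrays was left out. The Ighm probe set may also detect related transcripts. The B cell coactivator Pou2af1 lay at or below the floor on all 14 arrays. Their part in the members' results was not tested.

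Of 9 tested dendritic cell markers none passed at either age, and 2 at 6 months and 0 at 22 months had an unadjusted p under 0.05 (medians 0.39 and 0.13, limma). Their summed signal was 4164.7 to 5647.3 in dwarf and 3806.4 to 4389.2 in wild type mice of 6 months. At 22 months it was 3706.7 to 4189.9 and 3609.4 to 3848.4. Of the genes on that list known from activated antigen-presenting cells, Cd80, Cd86 and Ccr7 lay at or below the floor on all 14 arrays. Cd83, named after its values were seen and too faint to be tested, was 74.5 to 153.9 in young and 102.5 to 270.9 in old dwarf mice and at most 30.2, under the floor, in every wild type mouse. Cd40 was 1.24 ± 0.47 at 6 months (adjusted p = 0.0947, limma). Of 16 tested Kupffer cell and macrophage markers none passed at 6 months and 2 had an unadjusted p under 0.05 (median -0.07, limma), with sums of 7335.3 to 8714.7 in dwarf and 6734.5 to 11028.0 in wild type mice. At 22 months 3 were lower in dwarf mice (median -0.67): Aif1 (-1.30 ± 0.28, adjusted p = 0.0159, limma), the Kupffer cell lectin Clec4f (-1.16 ± 0.26, adjusted p = 0.0196) and Mpeg1 (-1.07 ± 0.25, adjusted p = 0.0254). Each lost its call when any of 4 single arrays was left out, animal 1 among them. The sums at 22 months were 7118.2 to 8107.0 in dwarf and 9903.0 to 14073.3 in wild type mice, without overlap. The macrophage receptor Marco lay at or below the floor on all arrays. The part of these cells in the members' results was not tested.

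Of 10 tested leukocyte markers 2 were higher and 1 lower at 6 months (median 0.26). Laptm5, a lysosomal membrane protein of blood cells, was higher (0.52 ± 0.12, adjusted p = 0.00992, limma), and so was Cd52 (0.72 ± 0.21, adjusted p = 0.0346), a call lost without 86, 88, 83, 85 or 89. Under median scaling neither was called, and the Laptm5 probe set may detect related transcripts. The actin-bundling protein Lcp1 was lower (-0.80 ± 0.17, adjusted p = 0.00483). Of 10 tested endothelial markers 3 were higher at 6 months and 0 lower (median 0.50). They were the sinusoidal scavenger receptor Stab1 (0.97 ± 0.19, adjusted p = 0.00328), Ramp2 (0.91 ± 0.20, adjusted p = 0.00714) and the receptor Kdr (0.79 ± 0.21, adjusted p = 0.0217), the last lost without 82, 87 or 89. Their summed signal was 5345.4 to 6665.2 in dwarf and 4520.1 to 5407.0 in wild type mice of 6 months. Of T cell and NK cell markers 4 of 17 with a probe set were tested, with 3 of 4 positive at 6 months (median 0.57) and 1 of 4 at 22 months (median -0.51). The kinase Zap70 was lower in dwarf mice at 6 months (-3.49 ± 0.27, adjusted p = 3.66e-07) and at 22 months (-4.00 ± 0.31, adjusted p = 1.13e-06). The Zap70 probe set may also detect related transcripts. Gzmb (1.11 ± 0.43), Thy1 (0.63 ± 0.29) and Cd4 (0.51 ± 0.38) did not pass at 6 months, and Cd3d and Cd8a lay at or below the floor on all arrays. At 22 months the summed signal of leukocyte markers was 3643.2 to 3973.5 in dwarf and 4519.3 to 4902.0 in wild type mice. That of endothelial markers was 4395.2 to 4893.2 and 4895.2 to 5310.8. That of T cell and NK cell markers was 575.6 to 729.6 and 1649.4 to 2018.5. None of these overlapped, nor did the sums of the MHC class I and interferon gamma lists, all lower in dwarf mice. The sums of hepatocyte, stellate cell and cholangiocyte markers overlapped.

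Lists of other liver cells also held calls at 6 months. Of 11 tested hepatocyte markers 5 were higher and 1 lower in dwarf mice (median 0.44), among them the urea cycle enzyme Cps1 (0.59 ± 0.14, adjusted p = 0.0122, limma) and Alb (0.44 ± 0.13, adjusted p = 0.0338). Alb was 0.01 after quantile normalization and lost its call without 82, 84, 86, 87 or 89. Both were lost under median scaling. The summed signal of the list was 207195.6 to 281903.3 in dwarf and 164558.9 to 196969.3 in wild type mice. Of 5 tested stellate cell markers 1 was higher, Reln (0.83 ± 0.17, adjusted p = 0.00393), and all 5 were positive (median 0.57). Their sums were 6495.7 to 8831.4 in dwarf and 4362.3 to 5737.5 in wild type mice, without overlap. Of 2 tested cholangiocyte markers 1 was higher, Cd24a (0.77 ± 0.23, adjusted p = 0.0407), lost when any of 8 single arrays was left out.

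With age in wild type mice, where H2-Aa, H2-Ab1 and Cd74 rose, 2 of 9 B cell and plasma cell markers were higher (median 0.26): Ighm (1.01 ± 0.22, adjusted p = 0.0275, limma) and Jchain (1.07 ± 0.24, adjusted p = 0.0282). Both calls were lost without 1, 2, 24, 82, 84 or 86. Of 16 Kupffer cell and macrophage markers 13 were positive (median 0.45), and Lyz2 passed (0.75 ± 0.18, adjusted p = 0.0391), lost without 1, 2, 24, 3, 84 or 86. Of 10 leukocyte markers 9 were positive (median 0.38), and Laptm5 passed (0.85 ± 0.13, adjusted p = 0.00474), also when any single array was left out. None of these calls held with the 18S signal as a covariate (adjusted p = 0.0764 for Laptm5 to 0.288 for Ighm). Lists of other liver cells held calls as well. Of 5 stellate cell markers 1 was higher, Reln (0.72 ± 0.18, adjusted p = 0.0465, limma; median -0.03). Of 11 hepatocyte markers 1 was higher, Ahsg (0.62 ± 0.15, adjusted p = 0.0391), and 1 lower, Pck1 (-0.99 ± 0.23, adjusted p = 0.0343), with a median of -0.05. Reln, Ahsg and Pck1 also lost their calls with the 18S signal (0.324, 0.224 and 0.321). In the interaction Aif1 (-1.76 ± 0.37, adjusted p = 0.0244) and Laptm5 (-0.95 ± 0.19, adjusted p = 0.0192) were lower, as Ighm was. The stellate cell marker Reln was lower too (-1.10 ± 0.26, adjusted p = 0.0363, limma). Aif1 lost that call without 1, 24, 4 or 8, Laptm5 without 24, 3 or 8, and Reln when any of 10 single arrays was left out. Aif1, Laptm5 and Reln all lost it with the 3' to 5' ratio as a covariate. The part of these cells in the members' results was not tested.

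The genes most like the members were ranked by Pearson's r over the 14 arrays with the mean centred log2 signal of the 6 tested members, among 5467 genes. They were Klf6 (r = 0.89, Spearman's rho = 0.785), Jun (0.868, 0.732), Sult1a1 (0.868, 0.78), Clca3a1 (0.867, 0.662), Jchain (0.862, 0.864) and Laptm5 (0.85, 0.877). The arrays share the groups' differences, so these values describe the pattern and carry no test. Sult1a1, a sulfotransferase, had mean signals of 746.9 in young wild type mice, 1438.9 in young dwarf, 1447.1 in old wild type and 1479.6 in old dwarf mice. Unlike the means of the 6 tested members, its mean did not lie lower in old dwarf than in old wild type mice. The same held for the means of Jun (206.0 in old dwarf and 189.9 in old wild type mice) and Clca3a1 (313.5 and 292.9). The means of Klf6, Jchain and Laptm5 lay lower in old dwarf mice. Laptm5 had means of 486.7, 698.7, 877.8 and 653.1 in the group order given for Sult1a1, ranking the groups as H2-Aa, Cd74 and the brighter H2-DMa probe set did. By deviations from the group means, the most alike were Tapbp (r = 0.90), Anapc1 (0.892) and Gas7 (0.875).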

How the data were processed

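Signal intensity values of 12488 probe sets in liver RNA of 14 mice were used as deposited by the authors, who made them with MAS5, per the submitters' processing notes. They are linear, and the mean after trimming was 500.4 on every array. Gene symbols came from the platform annotation, in which 10855 probe sets had 1 symbol, and the promoter sequences from RefSeq. After removal of 66 control probe sets, 7227 were tested (floor, the pooled 25th percentile, 54.9; above the pooled median, 184.8, on at least 3 arrays). A model with 1 mean for each of the 4 groups was fitted to log2 signal in limma 3.58.1 (R 4.3.3; eBayes with an intensity trend; Benjamini-Hochberg within each comparison). The fit was tested on simulated data.

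The members, lists and alternatives were chosen with earlier results of these data known. All probe sets of the members are named, and of the lists up to 4 genes with the smallest p. A list gene with several probe sets was represented by the brightest. The stability of list genes was examined as an alternative chosen after seeing the data. Arrays give no depth, and their number limits the precision.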

Additional observations from a re-analysis of the deposited data

Results flagged for a closer look

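In dwarf mice of 6 months, the Cd74 signal of animal 87, 1657.6, lay far below the other 3. On log2 signals, its gap to the nearest value was 0.948 of the whole range of the group, above Dixon's critical value for 4 samples. The 8 member probe sets were checked in both 6-month groups, 16 checks in all, and no other passed the limit, where chance passes about 1 in 20. Animal 87 was also the lowest dwarf mouse in 5 of the 6 tested members.

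The genotype difference was not the same at both ages for 3 members, by limma's interaction test. The difference at 22 months minus that at 6 months was -3.88 for H2-Aa (adjusted p = 0.00379), -1.74 for Cd74 (adjusted p = 0.033) and -1.43 for H2-Eb1 (adjusted p = 0.0252). Of all tested probe sets, 0.65% were called lower and 1.54% higher in this test. The Cd74 call was lost in 13 of 26 alternative runs and the H2-Eb1 call in 8 of 26.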

How the results depend on the processing

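Leaving out each array in turn, the number of member probe sets called ran from 2 to 5 at 6 months, 0 to 0 at 22 months, 1 to 5 with age in wild type mice, 0 to 1 with age in dwarf mice, 1 to 4 for the interaction and 0 to 1 for the average. With age in wild type mice 1 was called without the filter and 1 with the 18S signal as a covariate, in place of 3. With age in dwarf mice 0 were called under median scaling, without the filter, with the 3' to 5' ratio and with the 18S signal, in place of 1. For the interaction 1 was called under median scaling, without the filter and without the intensity trend, in place of 3. For the average 0 were called under quantile normalization, median scaling, the 40th percentile as floor, no filter, no trend and the 18S signal, in place of 1. The cause was not tested.

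The sign with age in dwarf mice turned for H2-Ab1 without animal 87 (-0.06; -0.06 to 0.70 leaving out each array) and for H2-DMa under median scaling (0.01), with the 3' to 5' ratio (0.02), with the 18S signal (0.10) and without animal 85 (0.06; -0.47 to 0.06 leaving out each array). Alb turned with age in dwarf mice after quantile normalization (0.01). The calls of H2-Aa at 6 months (2.46 to 3.40), with age in wild type mice (2.87 to 3.65) and for the interaction held in every alternative run, as did H2-Eb1 at 6 months (0.68 to 1.06). Median scaling moved the median of all tested probe sets with age in dwarf mice from -0.09 to 0.12 and for the interaction from -0.07 to 0.13. H2-Ab1 and the DM chains could not be tested with the filter at the 75th percentile. No paired analysis was possible because no animal number occurs in more than 1 group.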
